A study of Mus musculus with 8 samples.

Results

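Collagens are the main structural proteins of the extracellular matrix. The collagen genes were taken as every gene whose single annotated symbol has the form Col, a type number, a and a chain number. That rule found 42 of the 18193 genes with 1 symbol on the array. Each gene was represented by the probe set, a group of short probes against 1 transcript region, with the highest mean over all arrays. The arrays measured total RNA from secondary neurospheres, free-floating colonies grown from dissociated forebrain cells of FVB/N mice. Wild type cultures were FoxO3+/+ and the mutants FoxO3-/-, called FoxO3 null here. Both genotypes grew in medium with 20 ng/ml EGF and 20 ng/ml bFGF, were seeded at 50000 cells/ml and were collected at day 6. There were 8 arrays, 4 of each genotype, and the titles divide them into set 1 and set 2 with 2 arrays of each genotype in each set. The labels give neither the age and sex of the mice nor what separates the sets. Nor do they tie the arrays to separate cultures or animals, so the p-values speak for the spread among these 8 arrays, part of which may be technical.

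The targeted gene was checked first. Foxo3 read 10.24, 10.26, 10.32 and 10.00 on the wild type arrays (set 1 first, as in all lists of array values that follow) and 8.86, 9.08, 9.05 and 9.14 on the null arrays. All null arrays were below all wild type arrays, by 1.17 ± 0.08 on the log2 scale (SE, limma adjusted p = 0.000279), though still above the median gene of 7.41. Whether the probe set lies within the deleted part was not examined.

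Collagen chains assemble in the endoplasmic reticulum as helical trimers, after enzymes have hydroxylated many of their prolines and lysines. Fibrillar collagens (types I, II, III, V, XI, XXIV and XXVII) form the banded fibrils of connective tissue. Type IV collagen forms the sheet-like network of basement membranes, which in the forebrain surround vessels, line the pial surface and reach the stem cell niche beside the ventricles. The remaining classes decorate fibrils, form beaded filaments or hexagonal networks, carry heparan or chondroitin sulphate chains, or span the cell membrane. FoxO3 is a forkhead transcription factor that is held in the cytoplasm when growth factor signalling through Akt is active.

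The type IV genes lie in head-to-head pairs, so that members which share a promoter region can be compared. In the RefSeq annotation of GRCm38.p6, Col4a1 (chr8:11198423-11312889, minus strand) and Col4a2 (chr8:11312805-11449287, plus strand) overlapped by 85 bases at their starts. Col4a3 (chr1:82586921-82722059, plus strand) and Col4a4 (chr1:82448419-82587034, minus strand) overlapped by 114 bases. Col4a5 (chrX:141475370-141689236, plus strand) and Col4a6 (chrX:141165403-141474095, minus strand) were 1274 bases apart. For the pair that held the only genotype call, the part of the overlap between the transcription starts that the table of promoter windows uses for Col4a2 and Col4a1 is shown, chr8:11312805-11312826 on the plus strand, 22 bases with 72.7% GC. The upstream windows of the X-linked pair are given for comparison: chrX:141475169-141475399 on the plus strand (231 bases, 54.1% GC) for Col4a5 and chrX:141474077-141474326 on the minus strand (250 bases, 47.6% GC) for Col4a6. The last 30 bases of the Col4a5 window and the last 19 of the Col4a6 window lie inside the gene models. Sequences are from RefSeq, written 5′ to 3′ on the strand named, and capitals mark a GC box (GGGCGG or CCGCCC) or a CCAAT box.
Col4a2 and Col4a1, between starts: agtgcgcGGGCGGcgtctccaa
Col4a5, upstream: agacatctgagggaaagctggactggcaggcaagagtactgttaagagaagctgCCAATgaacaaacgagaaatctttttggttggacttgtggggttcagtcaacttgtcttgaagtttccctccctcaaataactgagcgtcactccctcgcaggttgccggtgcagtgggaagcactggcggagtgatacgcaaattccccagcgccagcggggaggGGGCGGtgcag
Col4a6, upstream: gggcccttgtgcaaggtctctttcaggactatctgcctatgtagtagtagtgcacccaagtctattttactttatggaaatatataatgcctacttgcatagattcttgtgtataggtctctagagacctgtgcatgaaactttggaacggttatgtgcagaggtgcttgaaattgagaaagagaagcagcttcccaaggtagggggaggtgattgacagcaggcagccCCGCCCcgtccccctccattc

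Windows from 250 bases before to 50 after a start were at hand for 33 of the 42 collagen genes, as 36 windows, and were searched on both strands. The forkhead motif GTAAACA was in 1 collagen window, that of Col6a1, and in 3.65% of all 32851 windows. The hypoxia response motif ACGTG was in 4 collagen windows, which is 11.1%, against 19.6% of all windows. GC boxes were in 22 collagen windows (61.1%, against 35.7% of all) and CCAAT boxes in 13 (36.1%, against 37.4%). Neither the Col4a1 nor the Col4a2 window held GTAAACA or ACGTG. These are matches of letters in short windows and say nothing of binding.

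Most collagen genes gave low signals in wild type neurospheres. The median wild type level of the 42 was 5.89 on the log2 scale, against 7.41 for all genes, and 12 of the 42 lay above that median gene. These 12 came from 5 classes: 4 of 11 fibrillar, 3 of 6 type IV, 3 of 9 fibril-associated, 1 of 5 beaded filament and 1 of 2 multiplexin collagens. Levels are signals of different probe sets, so they place a gene among all probe sets and do not compare transcript amounts between genes. The highest signals were those of Col4a1, at 10.37 ± 0.38 (SD, n = 4) and the 85.8th percentile of genes, and Col5a2, a chain of the thin type V fibrils, at 10.22 ± 0.14 and the 84.4th percentile. Col16a1, a fibril-associated collagen, followed at 9.31 ± 0.36, and Col4a5 at 9.24 ± 0.33. Col1a1, Col1a2 and Col3a1, the chains of the abundant collagens of skin, bone and vessel walls, read only 5.24 ± 0.11, 5.91 ± 0.10 and 5.28 ± 0.40. The type II chain Col2a1, known from cartilage, read 6.21 ± 0.34. The lowest signal, 4.05 ± 0.08, belonged to the fibrillar chain Col24a1. These SDs span both sets, and where a gene differed between sets they are wide for that reason.

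**Figure D1:**
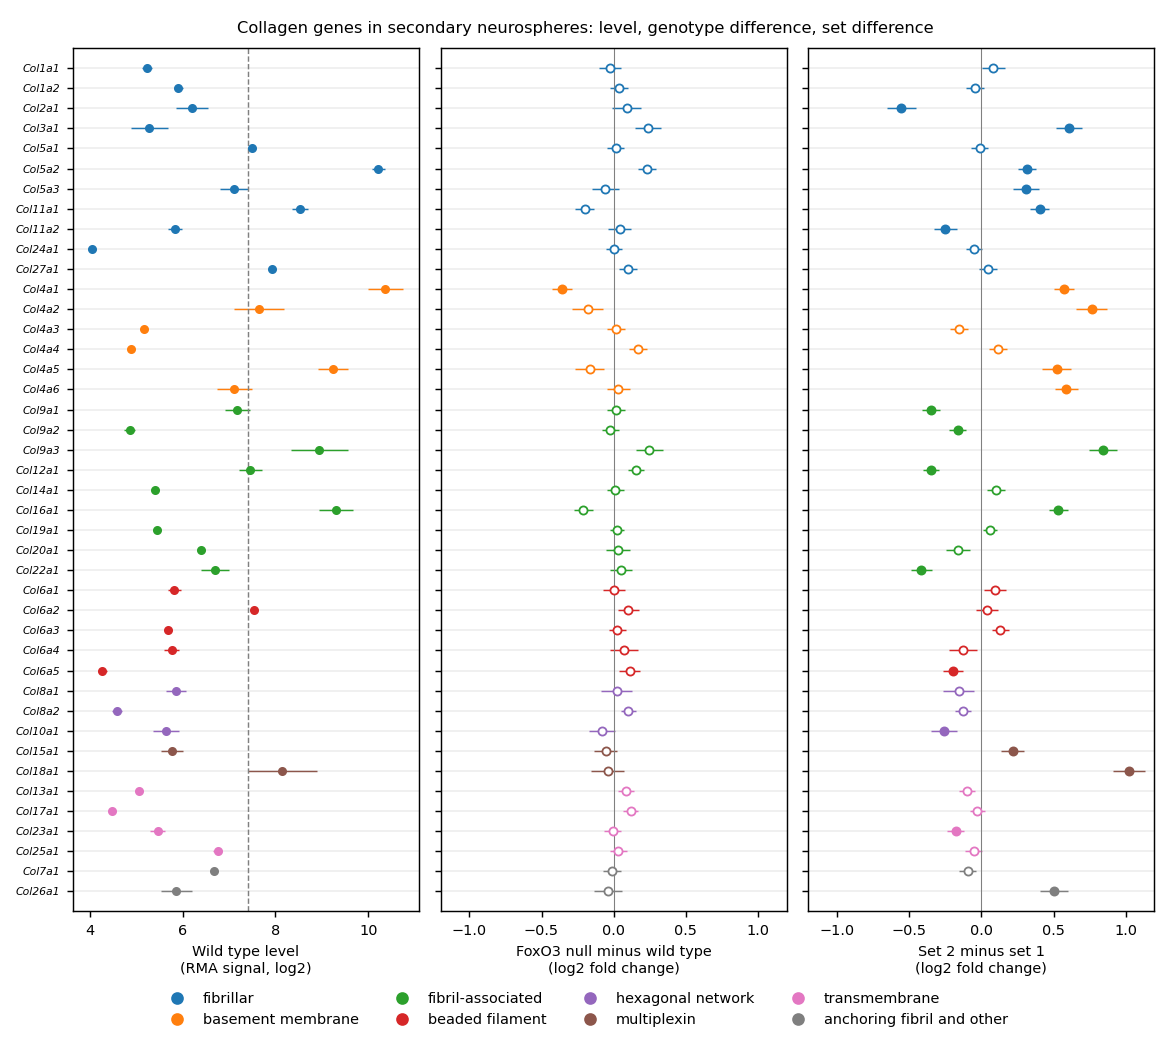
Levels and differences of the 42 collagen genes, ordered and coloured by class. The left panel gives the wild type mean of 4 arrays with its SD as RMA log2 signal, with the median gene at 7.41 as a dashed line; the middle and right panels give the log2 difference between genotypes and between sets with its standard error, and filled points passed an adjusted p of 0.05, which was Col4a1 alone between genotypes and 22 genes between sets.

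The spheres were checked against markers of their own and of other cell types. Markers of neural stem and progenitor cells were bright, with 9 of 11 above the median gene and Fabp7 and Vim, a lipid carrier and a filament protein of radial glia, at 14.55 ± 0.05 and 13.93 ± 0.14. Of 7 astrocyte markers 6 were above it. None of 12 endothelial markers was above the median gene, the brightest being Kdr at 7.20 ± 0.13 and Flt1 at 6.67 ± 0.35, and their summed signal lay between 9.31 and 9.50 on every array. None of 10 microglia markers was above it either, with Csf1r highest at 6.90 ± 0.08 and Tmem119 next at 6.69 ± 0.16. Of 15 fibroblast and meningeal markers 3 were above it, led by Ptgds (11.99 ± 0.11) and Pdgfra (8.44 ± 0.53), while Dcn and Lum, which define fibroblasts, read 6.13 ± 0.12 and 4.77 ± 0.07. Of 12 pericyte and smooth muscle markers 3 were above it, with Acta2 at 10.27 ± 0.38 and Notch3 at 9.53 ± 0.28, while Pdgfrb and Rgs5 read 5.83 ± 0.17 and 5.02 ± 0.31. One choroid plexus marker of 7, Otx2, was above it at 8.11 ± 0.19, and Ttr, that tissue's most abundant product, read 6.50 ± 0.22. Neurospheres are mixed colonies, and a smaller share of cells of a type cannot be told apart from less RNA per cell.

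Between genotypes, 1 of the 42 collagen genes passed the test, Col4a1, which was lower in FoxO3 null spheres. Over all genes 1.6% passed in either direction and 1.17% were lower, so the collagens' count is near the background. The differences of the 42 ran from -0.36 to 0.25 on the log2 scale with a median of 0.02, against 0.01 for all genes, and 28 were above 0, as were 9864 of all 18193 genes. An unadjusted p under 0.05 was reached by 9 of the 42 and by 2821 of all genes, again near the background. The arrays of the genotypes did not overlap for 1 of the 42, Col17a1, against 3.72% of all genes. That gene, a transmembrane collagen of epithelial attachment sites, was dim throughout, at 4.49 ± 0.07 in wild type and 4.61 ± 0.03 in null (SD, n = 4), and did not pass (adjusted p = 0.31).

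Within set 1 alone none of the 42 passed in limma, against 0.742% of all genes, and 5 had an unadjusted p under 0.05, against 1980 of all 18193. Within set 2 none passed, against 1.93% of all genes, and 6 had an unadjusted p under 0.05, against 2608 of all. The genotype difference differed between sets for 0 of the 42 in limma's interaction test, against 0.187% of all genes, with 3 at an unadjusted p under 0.05, against 1583 of all. Signs of the genotype difference matched in both sets for 23 of the 42 and for 10425 of all genes.

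Col4a1 encodes the chain that with Col4a2 makes the most widespread type IV network. Its wild type arrays read 10.12 and 9.99 in set 1 and 10.80 and 10.57 in set 2. Its null arrays read 9.74 and 9.76 in set 1 and 10.17 and 10.37 in set 2. Within each set both null arrays were below both wild type arrays, but across sets the groups overlapped, since set 2 was higher. The difference with the set as a term was -0.36 ± 0.07 (SE, 1.28-fold lower; 95% interval -0.51 to -0.20, adjusted p = 0.0333). It was -0.30 ± 0.10 in set 1 (adjusted p = 0.277) and -0.41 ± 0.10 in set 2 (adjusted p = 0.0726), so neither set passed by itself. The set 2 value passed when only genes above the median level were tested (adjusted p = 0.0324) and with a variance trend (0.00589), and the set 1 value in neither (0.133 and 0.0675). The call was lost without wild type array 1_1 (adjusted p = 0.12), without wild type array 2_1 (0.0979) and without each of the 4 null arrays (0.0637 to 0.0834). A second Col4a1 probe set, 1426348_at, gave -0.22 (adjusted p = 0.297 when every probe set was tested), and the chosen one, 1452035_at, then had an adjusted p of 0.053.

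Other transcripts moved with genotype in the same arrays. Of the Y-linked genes Eif2s3y was lower in null by 0.64 ± 0.13 (SE, adjusted p = 0.0391), Uty by 0.42 ± 0.08 (0.0266) and Kdm5d by 0.45 ± 0.14 (0.149), and with their mean as a covariate the Col4a1 difference was -0.14 with an adjusted p of 0.893. That mean followed genotype within sets at a correlation of -0.862, and only 8 genes of all passed with it as a covariate, so the lost call is not particular to Col4a1. Of 6 oligodendrocyte progenitor markers, all above the median gene, 4 were lower in null, against 1.17% of all genes. These were Pdgfra, lower by 0.67 ± 0.09 (adjusted p = 0.00598), Gpr17 by 0.66 ± 0.11 (0.0176), Cspg4 by 0.56 ± 0.08 (0.00893) and Sox10 by 0.27 ± 0.05 (0.0264). When only genes above the median level were tested, 5.01% of them passed between genotypes in either direction. Of the choroid plexus markers Otx2 was lower by 0.93 ± 0.10 (adjusted p = 0.00249), and the summed signal of the 7 was 9.18 to 9.36 in wild type and 8.90 to 9.06 in null. The other 6 choroid plexus markers did not pass. Otx2 was the brightest of the 7 in wild type and weighs most in that sum. Of the 7, 4 had a difference above 0, and the median was 0.01. Of the astrocyte markers the glutamate transporter Slc1a2 was lower by 0.84 ± 0.05 (adjusted p = 0.000279). The other astrocyte markers did not pass. Of the 7, 3 had a difference above 0 and 4 below, with a median of -0.10. Of the pericyte and smooth muscle markers Tagln and Acta2 were higher in null within set 2, by 1.48 ± 0.15 (adjusted p = 0.00134) and 0.83 ± 0.13 (0.0139), and for Tagln the difference from set 1 also passed (adjusted p = 0.00597). The other markers of this list did not pass in set 2, where 5 of the 12 were below 0. In set 1 none passed and 8 of the 12 were below 0, the lowest at -0.45. Over both sets 0 of the 12 passed, with a median of -0.02. The part of these cell markers in the Col4a1 difference was not tested. The summed signal of the 6 oligodendrocyte progenitor markers, which Olig1 dominates, ranged from 14.57 to 14.73 in wild type and from 14.59 to 14.71 in null.

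The other type IV chains did not pass between genotypes. Col4a2, the other gene of this pair, read 7.21, 7.18, 8.26 and 7.93 in wild type and 7.04, 7.25, 7.56 and 7.99 in null. Those groups overlapped, and the difference was -0.18 ± 0.11 (SE, adjusted p = 0.476). Col4a5, which joins Col4a6 in smooth muscle and epithelial basement membranes, read 9.06, 8.95, 9.69 and 9.27 in wild type and 8.68, 8.90, 9.20 and 9.52 in null. Its difference was -0.17 ± 0.10 (adjusted p = 0.479).

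Col4a6 gave 7.00, 6.63, 7.39 and 7.43 in wild type and 6.93, 6.78, 7.49 and 7.39 in null, a difference of 0.03 ± 0.08 (adjusted p = 0.899). Both genotypes followed the sets in this gene and overlapped within each. Col4a3 and Col4a4, the chains of kidney and lung basement membranes, were dim. Col4a3 stayed between 4.98 and 5.38 over all arrays. Col4a4 lay between 4.87 and 4.90 in wild type and at 4.89, 4.99, 5.24 and 5.08 in null, a difference of 0.17 ± 0.06 (adjusted p = 0.221). The summed type IV signal, which Col4a1 dominates, was 10.96, 10.83, 11.62 and 11.36 in wild type and 10.63, 10.72, 11.09 and 11.31 in null, lower in null than in wild type within each set.

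**Figure D2:**
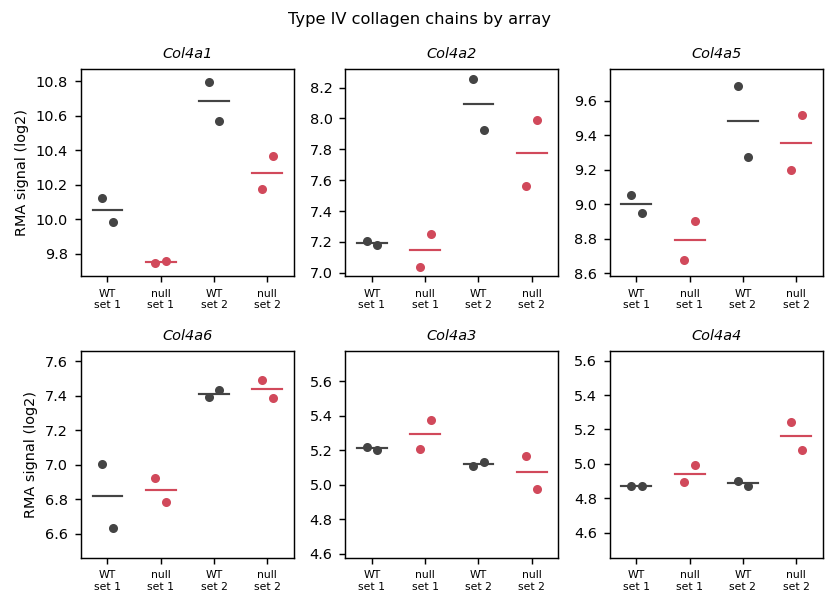
RMA log2 signal of the 6 type IV collagen chains on each array, by genotype (WT, wild type) and set, with a bar at the mean of 2 arrays. For Col4a1 both null arrays lie below both wild type arrays in each set, while Col4a2, Col4a5 and Col4a6 overlap between genotypes in set 2 and are higher in set 2 than in set 1.

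Among fibrillar collagens 0 of 11 passed between genotypes in limma, and the median difference was 0.04. An unadjusted p under 0.05 was found for 3 of them, beside 2821 of all 18193 genes. Col5a2 read 10.09, 10.11, 10.38 and 10.28 in wild type and 10.19, 10.31, 10.56 and 10.74 in null. Every null array was above every wild type array of its set. The difference was 0.23 ± 0.06 (SE; 95% interval 0.09 to 0.37) with an adjusted p of 0.117. It passed in 2 of 18 alternatives, with set and genotype as a random block (adjusted p = 0.0448) and with a variance trend (0.034). With array pairs averaged first the adjusted p was 0.426, and without single arrays 0.0962 to 0.251. Within set 2 the Col5a2 difference was 0.32 ± 0.09 (adjusted p = 0.112). It passed there when only genes above the median level were tested (adjusted p = 0.047) and with a variance trend (0.0157). In set 1 it was 0.15 ± 0.09 (adjusted p = 0.594) and passed in neither. Col11a1, a chain of the type XI fibril core, read 8.41, 8.37, 8.73 and 8.64 in wild type and 7.98, 8.18, 8.61 and 8.58 in null, lower in null in each set. Its difference was -0.20 ± 0.07 (adjusted p = 0.186). Col3a1, known from vessel walls and meninges, had a difference of 0.24 ± 0.09 (adjusted p = 0.236) at a dim signal of 5.28 in wild type. The other 8 fibrillar chains had differences from -0.06 (Col5a3) to 0.10 (Col27a1).

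The fibril-associated collagens, which bind to fibrils and interrupt the helix, had 0 of 9 passing in limma. For 3 the unadjusted p was under 0.05, beside 2821 of all 18193 genes. Col16a1 read 8.92, 9.08, 9.66 and 9.56 in wild type and 8.78, 8.96, 9.32 and 9.32 in null, a difference of -0.21 ± 0.06 (SE, adjusted p = 0.154). In set 2 its null arrays were both below the wild type arrays, and in set 1 the groups overlapped. Col9a3, a chain of type IX collagen, read 8.31, 8.54, 9.47 and 9.47 in wild type and 8.80, 8.96, 9.42 and 9.61 in null. Its genotype difference was 0.45 ± 0.10 in set 1 (adjusted p = 0.0843) and 0.04 in set 2, 0.25 ± 0.09 over both (adjusted p = 0.238), and the difference between the sets' effects had an adjusted p of 0.413. The set 1 value passed when only genes above the median level were tested and with a variance trend (adjusted p = 0.0335 and 0.0115). A second bright Col9a3 probe set, 1460693_a_at, gave 0.21 ± 0.23 in set 1 (adjusted p = 0.89 when every probe set was tested) and 0.04 over both sets. Col12a1, which links fibrils to other matrix, differed by 0.16 ± 0.06 (adjusted p = 0.216).

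In the remaining classes none of 16 genes passed between genotypes in limma, and 1 of them, Col17a1, had an unadjusted p under 0.05. The basement membrane proteoglycan Col18a1, whose C-terminal fragment is endostatin, read 7.50, 7.56, 8.97 and 8.57 in wild type and 7.64, 7.77, 8.39 and 8.64 in null. The difference was -0.04 ± 0.11, with the null arrays above wild type in set 1 and overlapping them in set 2. Its relative Col15a1 differed by -0.05 ± 0.08. The type VI chains, which form beaded microfilaments, differed by 0.00 (Col6a1) to 0.11 (Col6a5), and the brightest, Col6a2, had 7.55 ± 0.06 in wild type and 7.65 ± 0.14 in null (SD, n = 4). The network formers Col8a1 and Col10a1 differed by 0.02 and -0.08, and the transmembrane Col25a1 and Col23a1 by 0.03 and -0.01. Col7a1, the anchoring fibril chain of skin, differed by -0.01 and Col26a1 by -0.04.

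Foxo3 lies on chromosome 10, which also holds 5 collagen genes. The nearest collagen gene was Col10a1 at 7.785 megabases, with a difference of -0.08, then Col13a1 at 19.56 megabases with 0.09. Col6a1, Col6a2 and Col18a1 lay 34.32 to 34.78 megabases away.

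**Figure D3:**
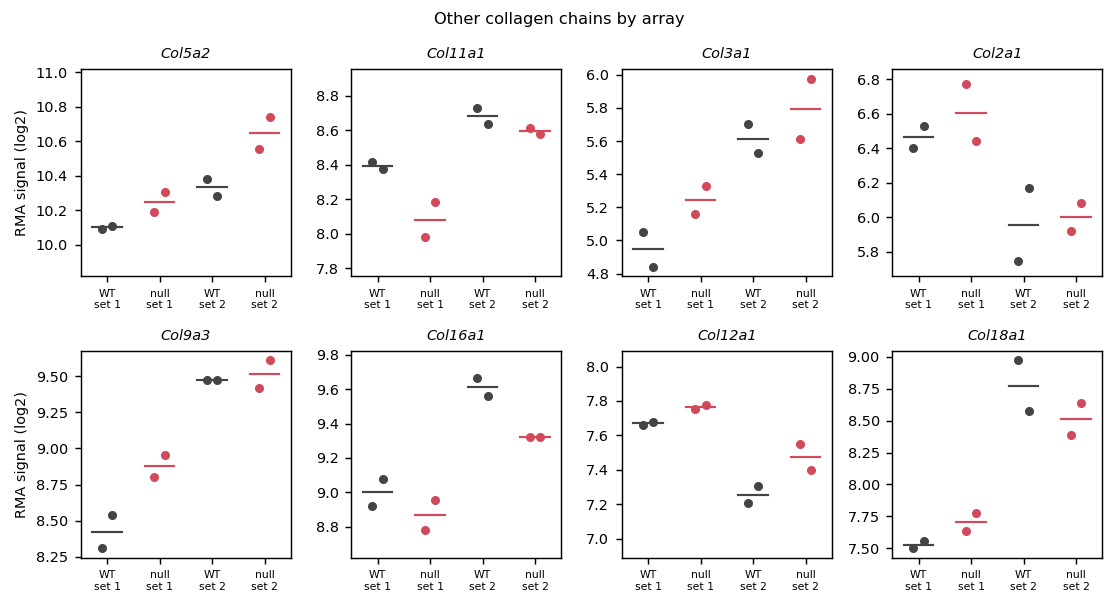
RMA log2 signal on each array of 8 collagen genes outside type IV, by genotype (WT, wild type) and set, with a bar at the mean of 2 arrays. Set 2 is higher for Col9a3, Col16a1, Col18a1, Col3a1, Col5a2 and Col11a1 and lower for Col2a1 and Col12a1, and for each of the 8 the difference between sets is larger than that between genotypes.

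Between sets, 22 of the 42 collagen genes passed the test, 13 higher and 9 lower in set 2. Over all genes 43.8% passed, 22.2% higher and 21.6% lower, so the sets differed broadly and the share of collagens is not far from the background. The arrays of the sets did not overlap for 18 of the 42, against 38.1% of all genes. In wild type arrays alone 16 passed, 11 higher and 5 lower, against 30% of all genes. Of the 12 collagens above the median gene 8 were higher and 1 lower in set 2 with a median difference of 0.46, and of the 30 others 5 were higher and 8 lower with a median of -0.07. Over all genes above the median gene 30.3% were higher and 19.8% lower with a median of 0.04, and over the others 14.1% and 23.3% with a median of -0.05. Whether the split by level is wider among collagens was not tested. The medians over all 42 and over all genes were 0.01 and -0.01.

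Of the type IV chains, 4 of 6 rose in set 2, against 22.2% of all genes, and none fell. Col4a2 was higher by 0.76 ± 0.11 (SE, 1.7-fold, adjusted p = 0.000385), Col4a6 by 0.59 ± 0.08 (1.5-fold, 0.000255), Col4a1 by 0.57 ± 0.07 (1.49-fold, 0.00014) and Col4a5 by 0.52 ± 0.10 (1.44-fold, 0.0022). In wild type alone these differences were 0.90, 0.59, 0.63 and 0.48, each past the threshold. Both members of the chromosome 8 pair and both of the X pair were among them, while Col4a3 had -0.16 (adjusted p = 0.0682) and Col4a4 0.12 (adjusted p = 0.157). No array of set 1 reached the lowest set 2 array for Col4a1, Col4a2, Col4a5 or Col4a6.

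The largest rise was that of Col18a1, 1.02 ± 0.11 (2.03-fold, adjusted p = 7.52e-05), and every set 2 array was at least at 8.39 where no set 1 array passed 7.77. Col15a1, of the same class, had 0.22 (adjusted p = 0.0496), a call held in only 2 of the 8 fits that leave out an array. Col9a3 rose by 0.84 ± 0.09 (1.79-fold, adjusted p = 8.28e-05), and in wild type alone by 1.05. The other type IX chains went the opposite way at their chosen probe sets, Col9a1 by -0.35 (adjusted p = 0.00138) and Col9a2 by -0.16 (0.0467). For Col9a1 a second probe set, 1428571_at, gave 0.79 (adjusted p = 0.000442 when every probe set was tested), so its direction is not settled. Col16a1 rose by 0.53 ± 0.06 (adjusted p = 0.00014).

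Fibrillar chains went both ways, 4 higher and 2 lower of 11 in set 2, beside 22.2% higher and 21.6% lower over all genes. Col3a1 was higher by 0.61 ± 0.09 (adjusted p = 0.000471), Col11a1 by 0.40 ± 0.07 (0.000951), Col5a2 by 0.32 ± 0.06 (0.0028) and Col5a3 by 0.31 ± 0.09 (0.02). The last 2 pair with Col5a1 in type V collagen, and Col5a1 had -0.01 ± 0.06 (adjusted p = 0.883). A further pair of Col5a1 probe sets passed in opposite directions when every probe set was tested, -0.19 for 1416740_at (adjusted p = 0.0162) and 0.27 for 1416741_at (0.00642). In the same test the second probe sets of Col5a2 (1450625_at, 0.05, adjusted p = 0.565) and Col5a3 (1425984_at, -0.02, 0.926) did not pass. In wild type alone the chosen Col5a2 probe set had 0.23 and did not pass (adjusted p = 0.0663).

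Col2a1 had the largest fall, with 6.40, 6.53, 5.74 and 6.17 in wild type and 6.77, 6.44, 5.92 and 6.08 in null. Every set 2 array was below every set 1 array, and the difference was -0.56 ± 0.10 (SE, adjusted p = 0.00156). Col11a2, which joins Col2a1 in cartilage fibrils, fell by 0.25 (adjusted p = 0.0271). Col22a1, known from tissue junctions, read 6.95, 6.96, 6.33 and 6.60 in wild type and 6.99, 6.88, 6.69 and 6.49 in null, a difference of -0.42 ± 0.07 (adjusted p = 0.00141). Col12a1 read 7.66, 7.68, 7.21 and 7.31 in wild type and 7.76, 7.78, 7.55 and 7.40 in null, a difference of -0.35 ± 0.06 (adjusted p = 0.000749). None of the other probe sets of Col22a1 and Col12a1 passed, and some had the opposite sign. Col26a1, a secreted protein with short collagenous stretches, was higher by 0.51 ± 0.10 at its chosen probe set (adjusted p = 0.00204) and lower by 0.31 at the dimmer 1458189_at (adjusted p = 0.000896 when every probe set was tested). The dim Col10a1 (-0.26, adjusted p = 0.0391), Col6a5 (-0.20, 0.0425) and Col23a1 (-0.18, 0.0327) made up the other falls. Of the 22 calls between sets 15 held without each array in turn. The other 7 were marginal: Col5a3 was lost without any 1 of the wild type arrays, and Col10a1, Col11a2, Col15a1, Col23a1, Col6a5 and Col9a2 held in only 2 or 3 of the 8 fits, with adjusted p up to 0.147. For these 6 every array was among those whose loss ended a call.

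Of the 22 genes that passed between sets, 14 had more than 1 probe set. For 8 of them a further probe set passed with the same sign, and for 2, Col9a1 and Col26a1, a further one passed with the opposite sign. The 3′ minus 5′ signal of the beta-actin control probe sets, a measure of RNA integrity, was 0.466 to 0.545 in set 1 and 0.330 to 0.390 in set 2. For the Gapdh control probe sets it overlapped between sets, at -0.102 to -0.0735 in set 1 and -0.115 to -0.0741 in set 2. The Y-linked genes also moved with the set, Kdm5d by -1.25, Uty by -0.70 and Eif2s3y by -0.37, and with their mean as a covariate 10 collagen genes passed between sets, against 8.22% of all genes in that fit. Of the 6 oligodendrocyte progenitor markers, all above the median gene, 4 rose in set 2, among them Pdgfra by 1.09 and Sox10 by 1.04. Over all genes 22.2% were higher in set 2, and 30.3% of those above the median gene. The part of RNA integrity and of oligodendrocyte progenitors in the set differences was not tested.

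Enzymes that modify nascent collagen chains were lower in null for some members. Among 15 prolyl and lysyl hydroxylases and their partners, 3 were lower in null, against 1.17% of all genes, and none higher. The list was chosen with earlier results of these data known, and 11 of its 15 genes were above the median gene. When only genes above the median level were tested, 5.01% of them passed between genotypes in either direction. P4ha1, a catalytic subunit of prolyl 4-hydroxylase, read 10.58, 10.47, 11.01 and 11.04 in wild type and 10.26, 9.92, 10.68 and 10.58 in null. Its null arrays were below the wild type arrays in each set, by 0.42 ± 0.07 (SE, adjusted p = 0.0213). Plod2, which hydroxylates the lysines of the telopeptides, read 11.25, 11.23, 10.92 and 10.95 in wild type and 10.84, 10.71, 10.74 and 10.64 in null. No null array reached the lowest wild type array, and the difference was -0.36 ± 0.06 (adjusted p = 0.0201).

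P3h4, a partner of the lysyl hydroxylase and cyclophilin complex, read 7.49, 7.53, 8.60 and 8.67 in wild type and 7.25, 7.26, 8.37 and 8.44 in null, a difference of -0.24 ± 0.05 (adjusted p = 0.0344). The sets lay much further apart than the genotypes in this gene. P4ha2, the other common catalytic subunit, had the largest difference of the list, -0.67 ± 0.20, but also the widest spread (null arrays 6.16, 5.08, 6.77 and 6.33) and did not pass (adjusted p = 0.141). The list's median genotype difference was -0.04. In set 2, 12 of the 15 were higher, against 22.2% of all genes, and 1, Plod2, lower, against 21.6%. Of the 15, 11 were above the median gene, and of all genes above it 30.3% were higher and 19.8% lower.

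Of 14 genes of collagen folding and export 1 passed between genotypes, against 1.6% of all genes. Creb3l2, a transcription factor of secretory genes in collagen-making cells, read 8.27, 8.16, 8.96 and 8.95 in wild type and 8.62, 8.46, 9.48 and 9.24 in null, higher in null in each set, by 0.36 ± 0.07 (SE, adjusted p = 0.0256). Next came Tango6 at 0.17 ± 0.07 (adjusted p = 0.252). The collagen chaperone Serpinh1 (HSP47) differed by 0.07 ± 0.05 between genotypes and was higher in set 2 by 0.63 ± 0.05 (adjusted p = 1.81e-05). In set 2, 8 of the 14 were higher and none lower, beside 22.2% and 21.6% of all genes. Of the 14, 11 were above the median gene, and of all genes above it 30.3% were higher.

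None of 12 genes of procollagen processing and crosslinking passed between genotypes in limma (2 with an unadjusted p under 0.05), and the smallest p-values were those of the crosslinking transglutaminase Tgm2 (0.12 ± 0.05, adjusted p = 0.298) and the propeptidase Adamts3 (-0.16 ± 0.07, adjusted p = 0.319). None of 13 collagen receptors passed (3 with an unadjusted p under 0.05), with Cd36 at 0.24 ± 0.08 (adjusted p = 0.163) and the integrin Itga1 at 0.25 ± 0.09 (adjusted p = 0.19) nearest. None of 14 collagen-degrading enzymes and inhibitors passed (4 with an unadjusted p under 0.05), with the inhibitors Timp1 at -0.33 ± 0.08 (adjusted p = 0.0951) and Timp4 at -0.24 ± 0.06 (adjusted p = 0.102) nearest. The unadjusted counts of these lists between genotypes stand beside 2821 of all 18193 genes. In set 2 these lists had 6, 6 and 8 genes higher and 0, 2 and 2 lower, beside 22.2% higher and 21.6% lower over all genes.

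Among 20 other basement membrane components none passed between genotypes in limma and 4 had an unadjusted p under 0.05, beside 2821 of all 18193 genes. Smoc1, a calcium-binding protein of basement membranes, had -0.26 ± 0.06 (SE, adjusted p = 0.0654) and the laminin chain Lama4 0.29 ± 0.08 (adjusted p = 0.0962). In set 2, 10 of the 20 were higher and none lower, beside 22.2% and 21.6% of all genes. Of the 20, 13 were above the median gene, and of all genes above it 30.3% were higher.

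Of 24 fibril-binding proteoglycans and glycoproteins 3 were lower in null, against 1.17% of all genes, and none higher. This list too was chosen with earlier results of these data known. Fn1, fibronectin, on which collagen fibrils are laid down, read 10.00, 9.84, 10.19 and 10.01 in wild type and 9.44, 9.35, 9.58 and 9.55 in null. All null arrays were below all wild type arrays, by 0.53 ± 0.06 (adjusted p = 0.0032). Bgn, the fibril-binding proteoglycan biglycan, read 6.80, 6.58, 8.08 and 7.84 in wild type and 6.47, 6.24, 7.44 and 7.24 in null, lower in each set, by 0.48 ± 0.09 (adjusted p = 0.0344). Emilin1, an elastic fibre glycoprotein, read 7.32, 7.43, 7.81 and 7.47 in wild type and 6.97, 7.14, 7.07 and 7.22 in null, a difference of -0.41 ± 0.08 (adjusted p = 0.0397) with no overlap of the groups. With array pairs averaged first 0 of all genes passed between genotypes, so no call of this or the other related lists held there.

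**Figure D4:**
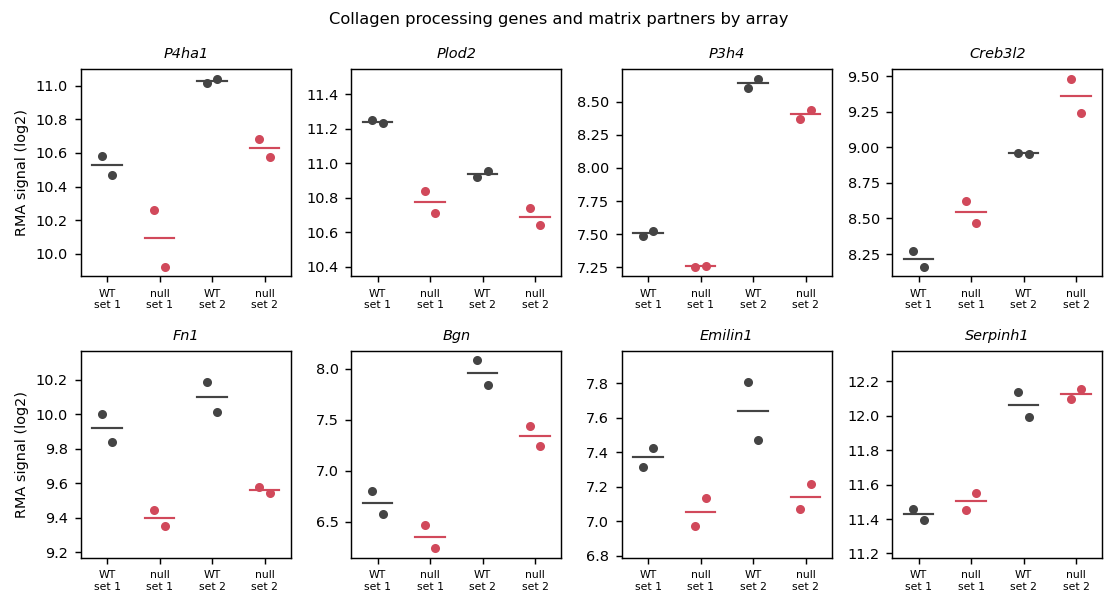
RMA log2 signal on each array of 7 genes outside the collagen family that passed between genotypes, and of the chaperone Serpinh1, by genotype (WT, wild type) and set, with a bar at the mean of 2 arrays. P4ha1, Plod2, P3h4, Fn1, Bgn and Emilin1 are lower and Creb3l2 higher in null in each set, while Serpinh1 differs between sets and overlaps between genotypes.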

How the data were processed

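Affymetrix Mouse430_2 arrays of 8 neurosphere RNA samples were used as deposited, as log2 signals. The submitters' processing notes name RMA as the tool that made the deposited log2 values, which corrects background, quantile-normalizes and summarises probes. The number of arrays limits the precision. Of 45101 probe sets, 64 controls were left out. Of the 45037 tested, 34945 had 1 gene symbol, 932 several and 9160 none, and 82 of those with 1 symbol belonged to the 42 collagens. Array medians were 6.27 to 6.31, and arrays of 1 set and genotype correlated at 0.9975 or more. Genes were fitted with limma 3.58.1 in R 4.3.3 (statmod 1.5.0 for the random block): genotype and set as additive terms, and for effects within a set, within wild type and the interaction a model of the 4 groups of 2 arrays. The p-values were adjusted by Benjamini-Hochberg over all 18193 genes and called at 0.05. The fits were tested on simulated data. Members, classes and gene lists were chosen with earlier results of these data known. Named were collagens that passed between genotypes, the 2 brightest per class, all type IV chains, the 3 largest changes each way between sets, up to 4 passing genes per related list (otherwise the 2 of smallest p) and the 2 brightest per marker list; further genes were named after their values were seen. Alternatives covered the set term, the replicate block, a random block, array means, normalization, a level filter, a variance trend, the probe set, a Y-linked covariate and each array left out. They were followed gene by gene for collagens only, not for genes of the related and marker lists.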

Additional observations from a re-analysis of the deposited data

Results flagged for a closer look

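In 84 groups of 4 arrays (42 genes in each genotype), 3 had an array set apart from the others by a gap past Dixon's limit for 4 samples. Chance gives about 1 in 20. In Col4a4, wild type array 2_1 read 4.90 and the next 4.87, a narrow range at a dim signal. In Col20a1, a fibril-associated collagen, wild type array 1_2 read 6.53 against a next value of 6.36, and FoxO3 null array 1_1 read 6.74 against 6.35.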

How the results depend on the processing

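Between genotypes 1 collagen passed, and 6 of 19 alternatives gave the same count. It was 0 without a set term (3 genes called over all), with the replicate block (133), with array means (0), with the Y-linked covariate (8) and with every probe set tested, 2 with a random block (796, consensus correlation -0.229) and 2 with a variance trend (620), and 0 to 1 without single arrays. The cause was not tested. Col4a1 was negative in 18 of 18 alternatives. The replicate numbers share only a number (correlation of same-numbered arrays 0.118 in set 1 and -0.11 in set 2); the replicate block left 0 collagens called. The set 1 count of 0 became 1 and the set 2 count of 0 became 2 when only genes above the median level were tested, and likewise 1 and 2 with a variance trend. Calls over all genes tested rose too. With the level filter they were 3.02% in set 1 and 5.36% in set 2, and with the variance trend 2.22% and 4.37%. In the main fit they were 0.742% and 1.93%. The interaction count was 0 in all 14. Between sets 22 became 9 with the level filter, which tests only 12 members, and 10 with the Y-linked covariate, and was 16 to 19 without single arrays; in wild type 16 became 9 with the level filter and was 11 to 16 without single arrays. With the level filter 54.6% of all genes tested passed between sets, and 45.3% in wild type. Col6a2 reversed to -0.24 between sets with the probe set of largest variance. A replicate block was not run for the set comparison, since the set is part of the block. Signals near background, those of most collagens, limit what small differences can be seen.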
